A study of Mus musculus with 6 samples.

Results

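The mitochondrial ribosomal protein genes were taken as the rows of the gene table whose symbol starts with Mrpl or Mrps followed by a number, with at most 1 further letter. There were 77 of them among 19386 listed genes, 48 named for the large subunit (Mrpl) and 29 for the small subunit (Mrps). The rule used only the symbols and no measured value. All 77 had an adjusted p in the authors' deposited table, as did 12082 genes in all.

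RNA was sequenced from bone marrow-derived macrophages of wild-type C57BL/6 mice, 3 libraries from mice kept in room air and 3 from mice exposed to cigarette smoke. These macrophages are grown from marrow cells in medium with 10% supernatant of L929 cells, a fibroblast line whose medium supplies the macrophage growth factor, and they were harvested on day 11. The smoke was therefore met by the mouse and not by the cultured cell. Age, sex and the length of exposure were not given in the sources used here. Whether each library comes from its own mouse is not stated. The p-values computed here for splicing therefore measure the spread between these 6 libraries. Those for expression rest on the authors' fit over 24 libraries, of which 6 belong here.

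Mitochondrial ribosomes translate the few messenger RNAs of the mitochondrial genome, which encode core subunits of the respiratory chain and the ATP synthase. Their proteins are all encoded in the nucleus, made in the cytosol and imported, and they assemble on the mitochondrial ribosomal RNAs. The small subunit binds the messenger RNA and decodes it, and the large subunit holds the peptidyl transferase centre and the exit tunnel. Many of the proteins descend from bacterial ribosomal proteins, and others are found in mitochondria alone. In macrophages, respiratory activity shifts with the state of activation.

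Expression was deposited as 1 mean of size-factor-normalized counts per group, so no library's own expression value is shown, and fold changes, standard errors (SE) and adjusted p come from a fit over 24 libraries, of which 6 belong here. All 8 macrophage markers had group means of 348 to 24772 normalized counts. Listed were 2 of 8 neutrophil, 3 of 5 B cell, 1 of 4 T cell and 3 of 5 dendritic markers, and none of these passed a mean of 10. None of the 6 erythroid markers was listed, so they have no value to read. The 5 stromal markers summed to 43.6 normalized counts in room air and 9.38 after smoke, and their part in the results was not tested. In the splicing table, smoke library 1 had no value for 40.2% of 10376 events and the other libraries for 0.00964% to 3.84%. In bulk RNA, fewer cells of a type and less RNA per cell cannot be told apart.

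Most mitochondrial ribosomal protein genes had a slightly higher group mean after smoke, and few passed the test. At an adjusted p under 0.05, 2 of 77 rose, Mrps18b and Mrps24, and none fell. Over all tested genes 4.15% rose and 3.53% fell, 7.69% in all, so the share of called genes in this family was not above the background. Neither Mrps18b nor Mrps24 passed once a trend in GC content and transcript length had been subtracted, as given below. The log2 fold change was above 0 for 67 of 77 members (87.0%), against 49.7% of all tested genes. Its median was 0.22 over the members, with quartiles of 0.11 and 0.36, and -0.0029 over all tested genes. At an unadjusted p under 0.05, 20 members were higher, or 26%, where 12% of all tested genes were, and 1 was lower, where 10.8% were. The members' means summed to 7432 normalized counts in room air and 8547 after smoke, which is 15% more. Of the 77, 73 were within 1.5-fold either way, and the other 4 were all higher after smoke: Mrpl52 (1.95-fold), Mrps24 (1.68-fold), Mrpl53 (1.62-fold) and Mrps26 (1.53-fold).

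**Figure D1:**
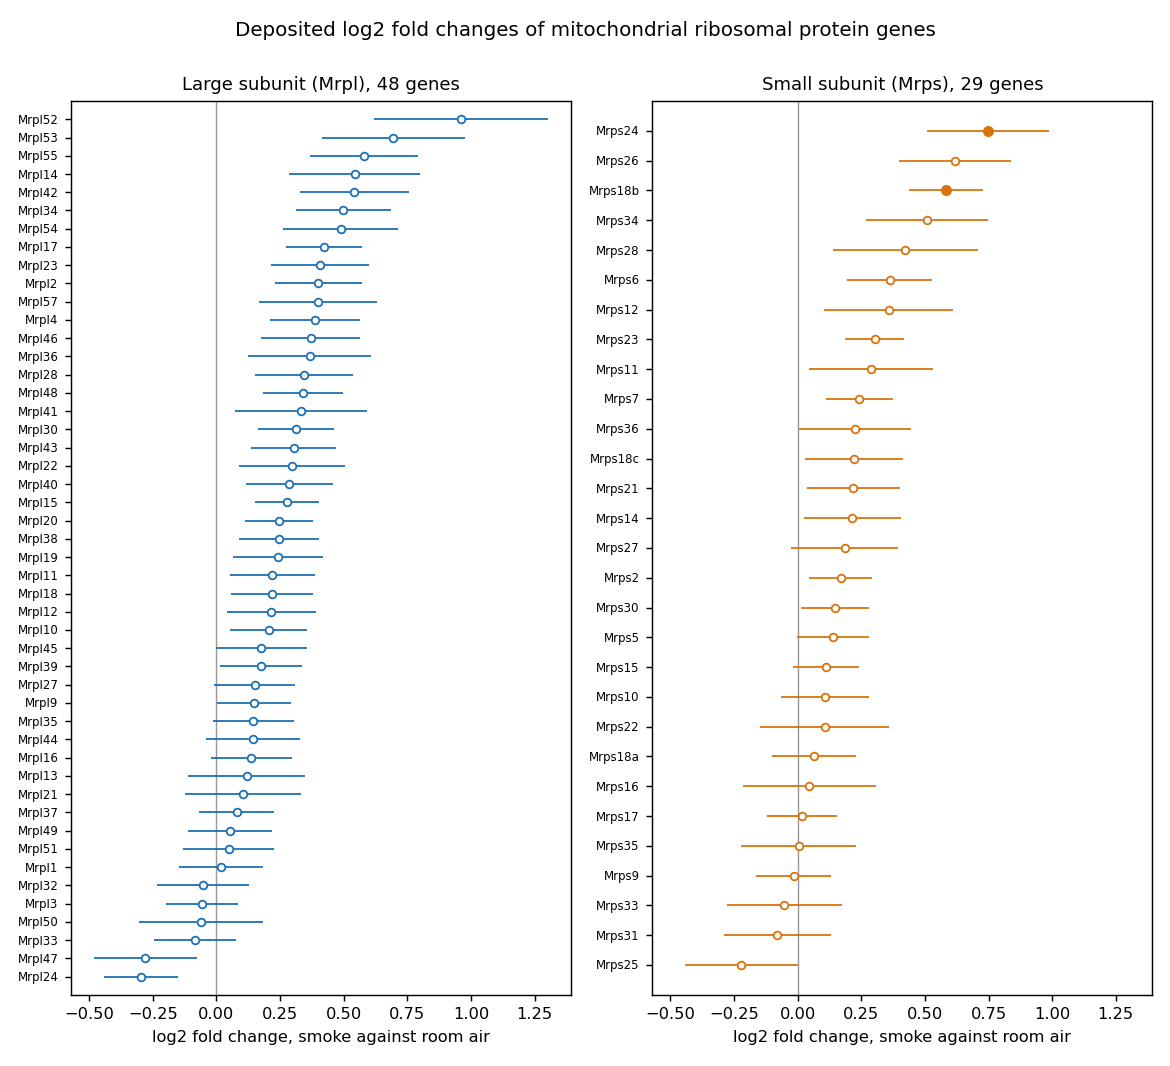
Deposited log2 fold change of smoke against room air (x axis) for each gene, with bars of 1 SE, for the 48 Mrpl genes and the 29 Mrps genes. Filled points mark the 2 genes with an adjusted p under 0.05, Mrps24 and Mrps18b; 67 of the 77 points lie to the right of 0.

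Mrps18b, the protein of the small subunit now placed at its mitochondria-specific mS40 position, had the lowest adjusted p of the family. Its mean in the authors' deposited table was 111.8 normalized counts in room air and 169.4 after smoke, and its log2 fold change there was 0.58 (SE 0.15, adjusted p = 0.00397). The gene (ENSMUSG00000024436.16) lies on the minus strand at chr17:35910379-35916389 of GRCm38 and starts head to head with Ppp1r10, a regulator of protein phosphatase 1. Ppp1r10 itself had a log2 fold change of 0.07 (SE 0.12) in the authors' deposited table. Mrps24, the counterpart of bacterial ribosomal protein S3, which lines the entry of the messenger RNA channel, had means of 44.6 and 75.9 in room air and smoke in the authors' deposited table. Its log2 fold change there was 0.75 (SE 0.24, adjusted p = 0.0311). Mrps24 (ENSMUSG00000020477.10, chr11:5703983-5715680, minus strand) shares its strand and part of its span with Urgcp, so reads may have been split between them.

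The next genes did not pass at an adjusted p under 0.05. Mrpl17, a large subunit protein near the exit tunnel, went from a mean of 84.8 to 115.4 by the authors' deposited table, and its log2 fold change there was 0.42 (SE 0.15, adjusted p = 0.0541). Mrpl52 was the gene of lowest mean in room air, with 13.8 there and 26.6 after smoke, and had the highest log2 fold change of the family in the authors' deposited table, 0.96 (SE 0.34, adjusted p = 0.0574). For Mrps26, the authors' deposited table gave means of 49.0 and 73.2 and a log2 value of 0.62 (SE 0.22, adjusted p = 0.0584). These 3 stood just outside the threshold, and Mrps18b and Mrps24 were the only ones inside it. Leaving out members whose mean was under 50 normalized counts, the 5 highest log2 fold changes in the authors' deposited table were those of Mrps24, Mrps26, Mrps18b, Mrpl14 (0.54, SE 0.26) and Mrpl42 (0.54, SE 0.21). Mrpl14 is the counterpart of bacterial L14, which sits at the interface between the subunits.

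At the other end, 10 members had a log2 fold change below 0. Mrpl24, the counterpart of bacterial L24, an early-binding assembly protein, had the highest mean of the family in room air, while Mrps6 stood above it after smoke. It also had the lowest log2 fold change, with 274.0 normalized counts in room air and 219.3 after smoke in the authors' deposited table (-0.30, SE 0.15, adjusted p = 0.198). Mrpl47, the counterpart of L29 beside the exit tunnel, followed at -0.28 (SE 0.20) in the authors' deposited table. Mrps25, Mrpl33 and Mrps31 completed the 5 lowest in the authors' deposited table, at -0.22 (SE 0.22), -0.08 (SE 0.16) and -0.08 (SE 0.21). None of these 5 passed the test, and the 95% interval of Mrpl24, -0.58 to -0.01, was the only one of them that left out 0. By the average of both groups, the genes of highest mean after Mrpl24 were Mrps6 and Mrps2, both counterparts of bacterial small subunit proteins. Mrps6 had 175.8 and 224.7 normalized counts (log2 fold change 0.36, SE 0.17, adjusted p = 0.162) by the authors' deposited table, and it shares its strand with Slc5a3 and with unnamed transcripts inside its span. Mrps2 had 188.9 and 210.3 (0.17, SE 0.12, adjusted p = 0.437) by the authors' deposited table.

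**Figure D2:**
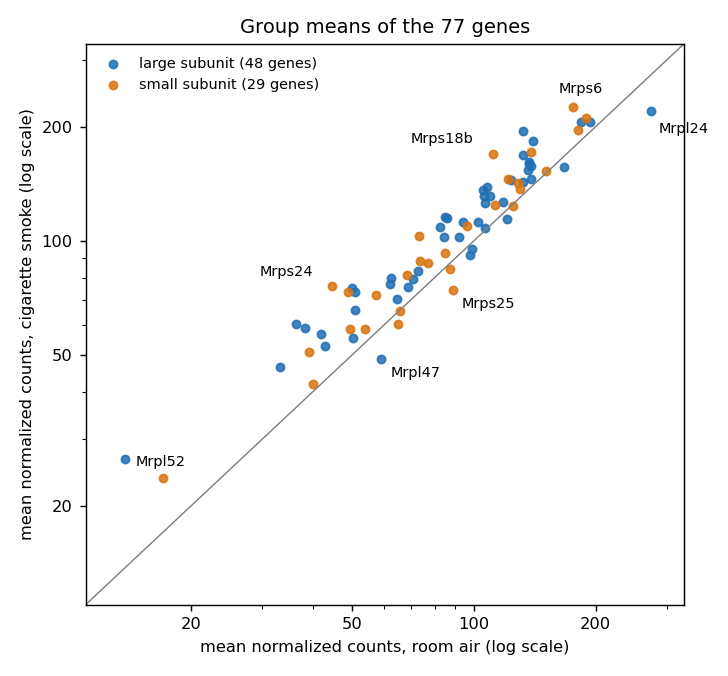
Mean normalized counts of the 77 genes in room air (x axis, log scale) and after smoke (y axis, log scale); the line marks equal means. Most points lie a little above the line, while Mrpl24, at 274.0 and 219.3, lies below it.

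Per kilobase of the representative transcript, the family spanned a wide range of levels. Mrps6 stood highest in room air, with 207.8 normalized counts per kilobase, followed by Mrpl33 with 204.8 and Mrpl24 with 204.7. After smoke Mrpl42 stood highest with 292.0 per kilobase (198.6 in room air), followed by Mrps6 with 265.6 and Mrps21 with 223.6, while Mrpl33 had 192.4 and Mrpl24 163.8. Mrps26 and Mrpl17 stood lowest, with 11.5 and 11.6 per kilobase in room air, and both have long annotated transcripts of 4278 and 7300 nt. These levels depend on which transcript is taken for the length.

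The median log2 fold change was 0.24 over the 48 large subunit genes and 0.19 over the 29 small subunit genes. Of the large subunit genes 42 were above 0 and of the small subunit genes 25, or 87.5% and 86.2%. The summed means were 4737 normalized counts in room air and 5449 after smoke for the large subunit, 15% more, and 2694 and 3098 for the small subunit, also 15% more. Both genes that passed the test belong to the small subunit, and no large subunit gene passed. At an unadjusted p under 0.05, 14 of the 48 large subunit genes (29.2%) and 6 of the 29 small subunit genes (20.7%) were higher. With the groups scaled to the same sum, the large subunit genes Mrpl17 (adjusted p = 0.0359) and Mrpl52 (adjusted p = 0.0482) were called as well, on the deposited SE. The difference of the medians was 0.06. After a fitted trend in GC content and length had been subtracted it was 0.014 with the representative transcripts, and -0.012 with the longest transcript of each gene. No test was made between the subunits, since their genes share the same 6 libraries and are not replicates.

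A gene's name does not always give its place in the ribosome. Mrps30 and Mrps18a sit in the large subunit of the mammalian mitochondrial ribosome, and Mrps36 is now counted as a component of the 2-oxoglutarate dehydrogenase complex. Their log2 fold changes in the authors' deposited table were 0.15 (SE 0.13) for Mrps30, 0.07 (SE 0.16) for Mrps18a and 0.22 (SE 0.22) for Mrps36. Of the S18 family, Mrps18c had 0.22 (SE 0.19) in the authors' deposited table, and Mrps18b alone of its 3 paralogues passed the test. The difference between them was not tested. With genes sorted by place, the medians were 0.23 over 50 large subunit genes and 0.20 over 26 small subunit genes. By ancestry, the 46 genes with a bacterial counterpart had a median of 0.22 with 40 above 0, and the 30 specific to mitochondria a median of 0.22 with 26 above 0.

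The members are short genes, and fold changes in these libraries moved with transcript length and GC content. The representative transcripts of the members had a median length of 1288 nt and 5 exons, against 2865 nt and 8 exons over all tested genes, while their median GC content of 50.7% was close to that of all tested genes. Over 12071 tested genes, the fold change had a Spearman's rho of -0.433 with transcript length and of 0.487 with GC content. Within the 77 members these were -0.441 and 0.535; both are correlations across genes, which are not independent and share the same libraries. Mrpl52, with 418 nt and 56.7% GC, and Mrps25, with 6073 nt and 45.1% GC, lie near the opposite ends of the range of length, and member GC contents ran from 39.6% to 60.6%. Mrpl17 lay against the trend, with 7300 nt, 43.0% GC and a log2 fold change of 0.42.

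**Figure D3:**
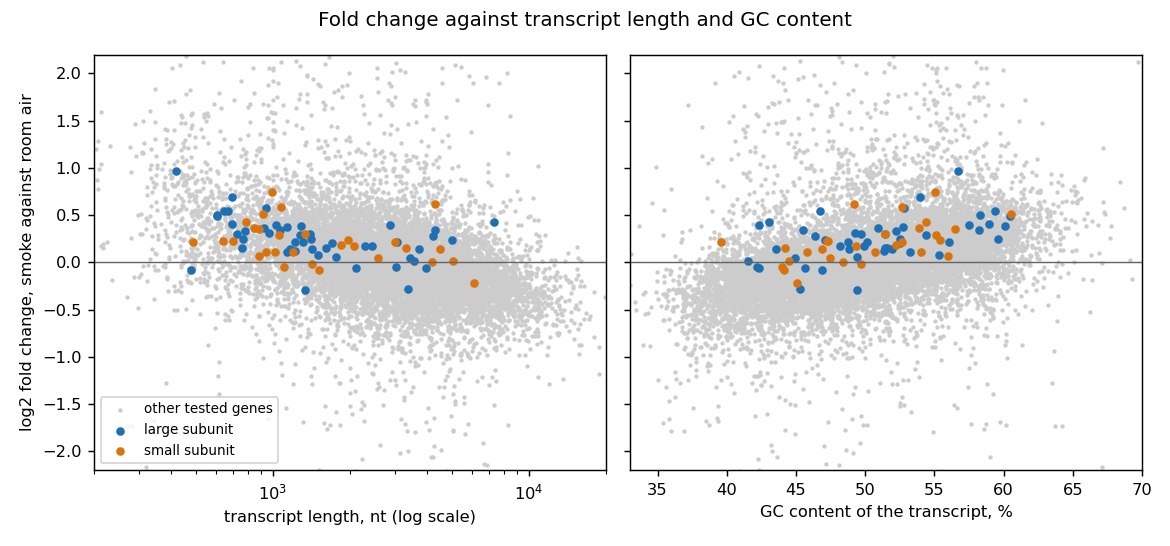
Log2 fold change of smoke against room air (y axis) against transcript length (left, log scale) and GC content (right); grey points are the other tested genes within the plotted range. The coloured points follow the slope of the grey cloud, short and GC-rich members lying highest.

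After a smooth trend in GC content and length, fitted over all tested genes, had been subtracted, the median of the members was 0.08, and -0.0068 over all tested genes. The large subunit had 0.09 and the small subunit 0.07. Residuals were above 0 for 56 of 77 members, or 72.7%, where 48.8% of all tested genes had a residual above 0. At an adjusted p under 0.05 after this step 1.48% of tested genes were called, and among the members Mrpl17 alone (residual 0.74, adjusted p = 0.000388). Neither Mrps18b (0.36, adjusted p = 0.246) nor Mrps24 (0.45, adjusted p = 0.471) passed after the step. The value of Mrpl17 rests on its 7300 nt annotated transcript, for which the trend predicts a negative fold change. What in the libraries gives rise to the trend was not tested.

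**Figure D4:**
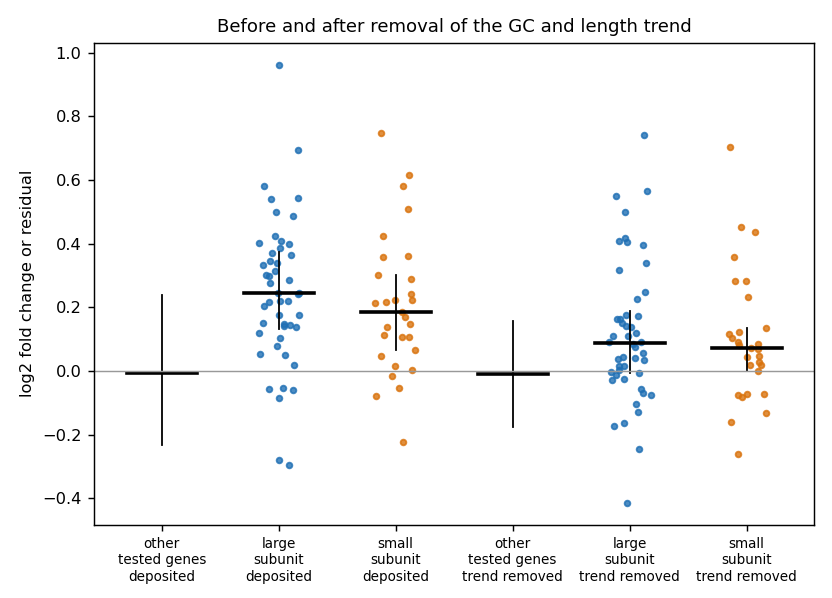
Deposited log2 fold changes (left 3 columns) and residuals after the GC content and length trend (right 3 columns) of the other tested genes and of the large and small subunit genes; points are genes, thick lines medians, thin lines quartiles. The medians fell from 0.24 to 0.09 for the large subunit and from 0.19 to 0.07 for the small subunit.

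Genes that work with the mitochondrial ribosome had list medians on both sides of 0. For the counts that follow, 4.15% of all tested genes rose and 3.53% fell, and 12% were higher at an unadjusted p under 0.05. Of the 6 mitoribosomal proteins with other symbols, 2 rose: Dap3, a GTP-binding protein of the small subunit (120.6 to 157.3 normalized counts, log2 fold change 0.39, SE 0.11, adjusted p = 0.0158 by the authors' deposited table), and Ict1, a peptidyl-tRNA hydrolase built into the large subunit (48.9 to 75.2, 0.58, SE 0.18, adjusted p = 0.0282 by the authors' deposited table). The other 4 did not pass, and the median of the 6 was 0.39. Of 27 tested factors for assembly and rRNA maturation, none passed in either direction, 2 were higher at an unadjusted p under 0.05, and the median was 0.03. Of 15 mitochondrial translation factors, Tufm, the elongation factor that brings aminoacyl-tRNA to the ribosome, rose (0.41, SE 0.13, adjusted p = 0.033 by the authors' deposited table), and the median of the 15 was -0.06. These lists have longer transcripts than the members, with median lengths of 2537.5, 1894 and 2623 nt. Once the fitted trend had been taken off, their medians were 0.16, -0.03 and -0.03. Dap3 was still called after that step (0.46, adjusted p = 0.00824), while Ict1 (0.56, adjusted p = 0.0963) and Tufm (0.15, adjusted p = 0.761) were not. Both mitochondrial ribosomal RNAs fell, mt-Rnr2 by 1.70 (SE 0.40, adjusted p = 0.00156) and mt-Rnr1 by 1.66 (SE 0.40, adjusted p = 0.00219) on the log2 scale in the authors' deposited table. Both ribosomal RNAs thus fell while 2 of the 77 messenger RNAs for the proteins rose and none fell. After trend removal mt-Rnr2 (-1.47, adjusted p = 0.0216) and mt-Rnr1 (-1.50, adjusted p = 0.019) were still called. Mrps18b and Mrps24 were not, and Mrpl17 alone of the members was called. Whether RNA was selected for poly(A) tails is not given, and its part in this contrast was not tested.

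Other short nuclear genes for large complexes had medians like that of the members. Of 77 tested cytosolic ribosomal proteins 13 rose and none fell, where 4.15% of all tested genes rose, with a median of 0.27 and 73 above 0. Among those that rose in the authors' deposited table were Rpl29 (log2 fold change 0.43, adjusted p = 0.00206), Rpl18 (0.59, adjusted p = 0.00336) and Rpl8 (0.49, adjusted p = 0.00356). Of 36 nuclear subunits of complex I, the first enzyme of the respiratory chain, 6 rose and none fell, with a median of 0.34 and 33 above 0. Those of lowest adjusted p in the authors' deposited table were Ndufa8 (log2 fold change 0.70, adjusted p = 0.00106), Ndufa12 (0.68, adjusted p = 0.00586), Ndufs7 (0.72, adjusted p = 0.00642), Ndufa11 (0.68, adjusted p = 0.0167) and Ndufb7 (0.55, adjusted p = 0.0343). Their median transcript lengths were 878 and 891.5 nt, and after the trend had been subtracted their medians were 0.06 and 0.12, and 2 of the 77 and none of the 36 were called, where 1.48% of all tested genes were.

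Many members share a start region with a neighbour. Of the 77, 33 (42.9%) had a gene starting on the other strand within 1 kb, against 16.5% of all tested genes. Of the 28 such neighbours that were tested and are no members, 16 had a log2 fold change above 0, where 49.7% of all tested genes did. Their median was 0.04. Of the 28, 1 rose, where 4.15% of all tested genes rose. This was Ndufs6, a complex I subunit beside Mrpl36 (0.70, SE 0.24, adjusted p = 0.0486 by the authors' deposited table). One pair joins the subunits: Mrps11, on the platform of the small subunit, and Mrpl46, a mitochondria-specific protein of the large subunit, start head to head on chromosome 7. Mrps11 had 57.5 and 72.0 normalized counts and Mrpl46 51.0 and 65.6 in the authors' deposited table, with log2 fold changes of 0.29 (SE 0.24) and 0.37 (SE 0.19).

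RefSeq start-site windows on GRCm38.p6, which hold 250 bases before and 50 after a start, were found for 68 of the 77 genes (74 windows). They were searched on both strands for 3 sets of letters: CCGGAAG (the ETS family), AAGATGGCG (YY1) and CACGTG (the E-box bound by Myc and others). None of the sets contains another. CCGGAAG stood in 33.8% of member windows and 18.3% of the windows of all tested genes, and AAGATGGCG in 10.8% and 3.26%. CACGTG stood in 9.46% and 10.1%. The 25 members with CCGGAAG had a median log2 fold change of 0.22 and the 43 without it 0.18. A match of letters is not a bound site. The shared start of Mrps11 and Mrpl46, the bases before the start of Mrps24, a called gene, and the window of Mrpl17 are shown as far as no GENCODE exon covers them, each on the strand of the named gene, with capitals for any of the 3 sets of letters.
Mrps11 with Mrpl46, plus strand, chr7:78783090-78783118: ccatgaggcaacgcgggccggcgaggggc
Mrps24, minus strand, chr11:5707702-5707951: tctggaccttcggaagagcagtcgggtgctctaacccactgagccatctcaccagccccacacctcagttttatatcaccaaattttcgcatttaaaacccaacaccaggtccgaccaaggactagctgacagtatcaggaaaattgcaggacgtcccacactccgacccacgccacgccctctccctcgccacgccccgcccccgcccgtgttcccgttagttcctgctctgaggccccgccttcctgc
Mrpl17, minus strand, chr7:105811100-105811337: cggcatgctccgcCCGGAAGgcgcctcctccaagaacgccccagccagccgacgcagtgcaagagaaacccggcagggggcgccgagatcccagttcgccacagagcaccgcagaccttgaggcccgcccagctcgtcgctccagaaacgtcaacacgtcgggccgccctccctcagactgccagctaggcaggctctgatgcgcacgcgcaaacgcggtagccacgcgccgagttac
The 29 bases shown for Mrps11 and Mrpl46 are the part without exons between their RefSeq starts, and are 79.3% G or C. They hold none of the 3 sets. The Mrps11 window holds AAGATGGCG outside the bases shown, and the Mrpl46 window holds none of the 3. The 29 bases lie inside the longer GENCODE model of Mrpl46, which overlaps Mrps11 on the other strand. Whether reads were counted by strand is not given in the sources used here, so reads of the overlap may have been counted to either gene. The 250 bases before the start of Mrps24 hold none of the 3 sets, while AAGATGGCG stands in the 50 bases after the start, which are not shown. The stretch shown lies before the RefSeq start and inside the longer GENCODE gene model, and is 58.8% G or C. That of Mrpl17 holds CCGGAAG once and is 68.5% G or C.

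Splicing was measured per library as the percent inclusion of each event, given by JuncBASE, a program that compares the reads across alternative junctions. Within the members' spans and on their strand lay 101 events in 42 genes, 74 in large subunit and 27 in small subunit genes. Mrpl24 had the most, 10, followed by Mrpl4 with 9. With limma and Benjamini-Hochberg adjustment over all 10376 events, no member event had an adjusted p under 0.05, nor did any other event (0%), and the lowest adjusted p among the members was 0.128. At an unadjusted p under 0.05 by limma, 14 member events passed, 13 lower and 1 higher after smoke, against 10.8% of all events. Smoke library 1 had no value for 48 of the 101 events, room air library 1 for 10, and the other 4 libraries for none. Read depth behind each level is unknown. Among the 52 member events with 6 values, every smoke value lay below every room air value in 12 and above in 1, where 19.3% and 3.84% of all such events did.

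Among events with an unadjusted p under 0.05 by limma, the single one that was higher was in Mrpl23, the counterpart of bacterial L23 at the exit tunnel. A donor site that GENCODE does not annotate, inside the intron, was used in none of the room air libraries, at 0%, 0% and 0%, and at 11.8%, 9.52% and 7.69% in smoke libraries 1 to 3. The groups did not overlap, and the difference of means was 9.66 percentage points (log2 odds 3.54, SE 0.44, adjusted p = 0.128 by limma). The 2 donor sites compete for the same acceptor, with introns of 1810 and 1387 bases ending at chr7:142535004. They are shown with the last 12 exon bases, and the first 2 intron bases in capitals.
Mrpl23 annotated donor: gcggaatgtgttGTgagtaaagtc
Mrpl23 second donor: caataagaagggGTgagggctggt
Both introns start with GT, the usual donor letters.

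Mrpl28, another large subunit protein with a bacterial counterpart, had values of the other direction at an intron of 548 bases (chr17:26124709-26125256). Use of a second donor site slightly inside this intron was 9.09%, 8.57% and 3.85% in room air and 0%, 0% and 2.38% after smoke, without overlap (log2 odds -2.47, SE 0.69, adjusted p = 0.273 by limma). Retention of the same intron was 4.76%, 8.57% and 7.41% in room air and 0%, 0% and 2.38% after smoke (adjusted p = 0.246 by limma). A separate reading of that donor from junctions alone gave 4.76%, 5.88% and 0% in room air and 0%, 0% and 0% after smoke, which overlap. The 3 readings concern the same intron and are not independent. The donors are shown in the same way.
Mrpl28 annotated donor: tatattctcaagGCaagcaggggt
Mrpl28 second donor: aggcaagcagggGTtagtgcactc
The annotated intron starts with GC, a rarer donor, and the second site with GT.

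Mrpl27, the counterpart of bacterial L27 near the peptidyl transferase centre, has 2 annotated donor sites that join the same acceptor. The junction from the downstream donor, over an intron of 2326 bases in place of 2645, made up 14.3%, 33.3% and 22.2% in room air and 10%, 0% and 0% after smoke. All 3 smoke values lay below the lowest room air value (log2 odds -3.71, SE 1.08, adjusted p = 0.291 by limma). A separate reading of the same donor as an alternative donor event gave 7.69%, 20% and 12.5% in room air and 6.25% and 5% in smoke libraries 2 and 3, with no value in smoke library 1. Its difference of the means was -7.77 percentage points, against -19.9 for the reading above. The joined exons are shown with the upstream exon in capitals.
Mrpl27 upstream donor: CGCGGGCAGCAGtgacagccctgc
Mrpl27 downstream donor: CTCGCTTTTGAGtgacagccctgc
In Mrps7, a primary binding protein of the small subunit head, a donor that is not annotated was used at 7.14%, 5% and 3.7% in room air and at 0%, 0% and 1.64% after smoke (adjusted p = 0.247 by limma). Retention of that intron was 10.3%, 2.56% and 7.14% in room air against the same 3 smoke values, again without overlap (adjusted p = 0.288 by limma).

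Retained introns made up 23 of the member events, in 15 genes, all of them annotated introns at low levels. Their mean level in room air ranged from 2.56% to 14.1%, and 22 of the 23 had a lower mean after smoke, where 89.9% of all 3305 retained introns did. In 7 of the 15 introns with 6 values every smoke value lay below every room air value, against 38.7% of all such introns. Over those 15 introns, the mean level was 5.48%, 6.74% and 6.55% in the room air libraries and 0.555%, 1.22% and 3.39% in the smoke libraries. That is 6.26% ± 0.68 (SD, n = 3) against 1.72% ± 1.48 (SD, n = 3), a difference of -4.54 percentage points, with no overlap (exact two-sided permutation test, p = 0.1, the smallest that 3 against 3 allows). Over the 1977 other introns with 6 values, the mean went from 15.7% ± 0.984 to 11.5% ± 1.27 (SD, n = 3 each), a difference of -4.23 points. The members' mean minus that of the other introns was -9.49 points in room air and -9.79 after smoke, and the 2 groups overlapped (exact permutation test, p = 0.9). The members started from a lower level, so a like difference in points is a larger share of it.

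**Figure D5:**
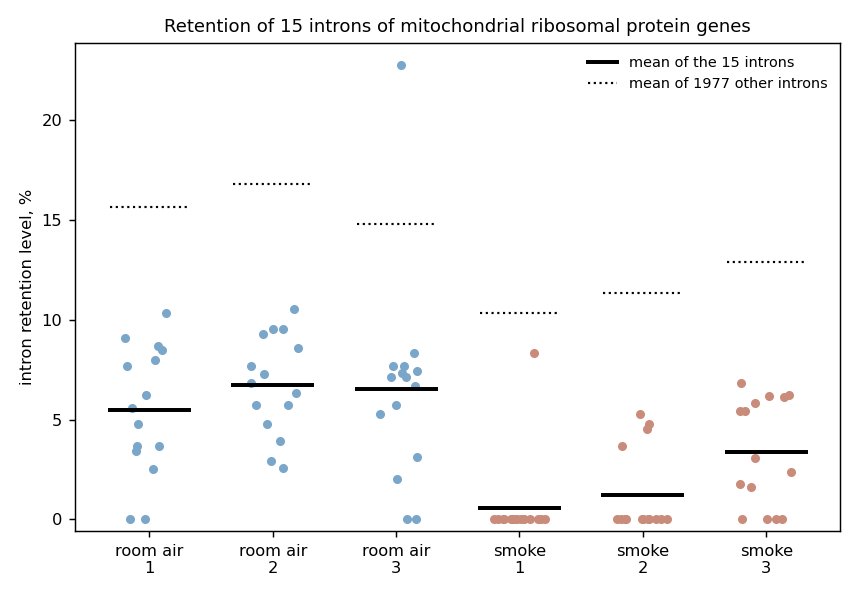
Retention level in percent (y axis) of 15 introns of mitochondrial ribosomal protein genes in each of the 6 libraries (x axis); points are introns, thick lines their mean and dotted lines the mean of 1977 other introns. The members' mean lies between 5.48% and 6.74% in room air and between 0.555% and 3.39% after smoke.

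Many smoke values were exactly 0, and libraries differed in this beyond the members. In smoke libraries 1, 2 and 3, 93.3%, 73.3% and 26.7% of the 15 introns stood at 0, and of the other introns 63.1%, 46.3% and 11.3%. The share at 0 among the member introns minus that among the others was 0.745 percentage points in room air and 24.2 after smoke, without overlap (exact two-sided permutation test, n = 3 per group, p = 0.1). The 2 sets of introns were not matched for level, with room air means of 6.26% and 15.7%. What part the lower starting level had in this was not tested. In room air the shares were 13.3%, 0% and 13.3% of the member introns and 2.73% to 12.8% of the others. The smoke library with the fewest values, library 1, thus also had the most zeros, and the part of read depth in the lower retention was not tested. Mrpl37, a mitochondria-specific large subunit protein, showed the pattern most clearly: 1 intron (chr4:107062069-107064384) stood at 3.45%, 3.92% and 5.26% in room air and at 0% in all 3 smoke libraries (adjusted p = 0.155 by limma). In Mrpl33, the counterpart of bacterial L33, an intron stood at 7.69%, 4.76% and 6.67% and then at 0%, 3.7% and 0% (adjusted p = 0.362 by limma). Mrps18b, the gene with the lowest adjusted p in expression, had an intron at 5.56%, 9.52% and 2% in room air and at 0%, 0% and 3.08% after smoke, where the groups overlapped.

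Cassette exons are skipped or kept whole. Their mean inclusion was lower after smoke in 10 of 11 genes, where 55.7% of all 1256 cassette events were lower. The median difference was -3.78 points, against -0.78 over all cassette events. In Mrpl23, Mrpl27 and Mrps18a inclusion was 100% in every room air library, so it could not rise. None of the 11 cassette events had an unadjusted p under 0.05 by limma, the lowest being 0.063 in Mrpl14. In most of these the exon was kept in nearly all or in nearly no transcripts; in Mrpl30 inclusion was 65.2%, 50% and 78.0% in room air and 60%, 57.1% and 55.9% after smoke, which overlap. Both alternative last exons were lower, where 50% of all 138 were. Events read from junctions alone were lower in 12 of 23 at donors and in 6 of 15 at acceptors, where 51.7% and 50.3% of all such events were. Alternative donors were lower in 10 of 15 and alternative acceptors in 8 of 12, where 62.3% and 59.9% of all such events were. The authors' own p in the deposited JuncBASE table was under 0.05 for 4 of the 101 member events, where 4.15% of all 10376 passed, and the lowest corrected p there was 0.499.

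In the authors' deposited table of retained introns from rMATS, a program that uses reads inside the intron as well, 15 introns of 6 member genes were listed. At a false discovery rate under 0.05, 3 passed, where 14.5% of all 3887 listed introns did. These were introns of Mrps5 (chr2:127598277-127600011, difference 2.7 percentage points, false discovery rate 0.000209), Mrps10 (chr17:47372646-47374972, 7.4 points, 0.0153) and Mrpl4 (chr9:21007900-21008493, 4.1 points, 0.032) in the authors' deposited table. All 3 were higher in sample set 1, as were 12 of the 15. Which group is set 1 is not stated, so no direction between smoke and room air is drawn. The Mrpl4 intron was also a JuncBASE event, at 3.7%, 6.82% and 5.71% in room air and at 0%, 4.55% and 5.41% after smoke, with overlap. Mrps5, Mrps10 and Mrpl4 had log2 fold changes of 0.14 (SE 0.14), 0.11 (SE 0.17) and 0.39 (SE 0.18) in expression in the authors' deposited table, and none of them passed the test.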

How the data were processed

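The 6 libraries were grouped by their titles. Per the submitters' processing notes, STAR, DESeq2, SAMtools 1.9, bedtools 2.27.1 and build mm10 were used, without roles; the counting program, its annotation and whether RNA was selected for poly(A) tails are not given in the sources used here. Per the labels' protocols the library kit was directional. The authors deposited group means of size-factor-normalized counts (a signal, not raw counts), log2 fold changes with their SE, a Wald score and p-values. The column's name marks a shrunken fold change, but the score is fold change over SE. No per-library expression was used here, so the deposited comparison was read at an adjusted p under 0.05 and not refitted. Total counts per library are therefore unknown. Percent inclusion per library and its medians were deposited by the authors as JuncBASE output, per the file headers, and a difference of medians as a score. From rMATS the authors deposited p-values, false discovery rates and a difference of inclusion levels, also a score; 6 columns of per-sample values in that table were not used, because its sets are not named. The table holds 4 further rows named as pseudogenes of members (Mrpl23, Mrps36 and Mrpl48), whose reads may be shared with these 3 genes.

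The members and lists were chosen with earlier results of these data known. Gene spans, lengths, GC content and introns came from GENCODE M21 on GRCm38 (72 members matched by full identifier, 5 without its version), with the APPRIS principal transcript as representative. The trend in GC content and log2 length was removed by weighted least squares on natural splines of 4 degrees of freedom (statsmodels 0.14.6, patsy 1.0.2), with p-values from the residual over the deposited SE. Inclusion p in percent was tested as log2((p + 1)/(100 - p + 1)), with a pseudocount of 1 point, by limma 3.58.1 in R 4.3.3 over all events. The NRF1 letters planned for the promoter search are not reported here. Both scripts were tested on simulated data. JuncBASE events lay wholly within a member's span on its strand; 3 events of Mrps21 with no strand were left out. Genes were named by rule: called genes, the 5 highest and 5 lowest with a mean of at least 50, the 3 of highest mean, the 3 nearest each side of the threshold, genes with the lowest event p, those named apart from their place in the ribosome, and at most 5 called genes of each list, some of which are not reported here. Mrps11 and Mrpl46, Ppp1r10, Ndufs6, Mrpl36, Mrpl30, Mrps21, Mrpl53 and the Mrps18b intron were added after their values had been seen. Alternatives were other thresholds, scalings, filters, pseudocounts and samples.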

Additional observations from a re-analysis of the deposited data

How the results depend on the processing

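Of 77 members, 9 were called at an adjusted p under 0.1 (12.8% of all genes) and 1 under 0.01 (3.03%), 4 of 68 with adjustment only over genes whose mean reached 50 (10%), 5 with groups scaled to the same sum (7.92%), and 1 after removal of the GC content and length trend (1.48%), all of them higher after smoke. Removal of the length trend alone was an alternative added after seeing the data, like that with the longest transcript. With it 3 members were called (3% of all genes), 1 of them lower (1.41% of all genes). The members' median stayed above 0 under every scaling and filter run, between 0.08 and 0.25; the 2 scalings moved all genes by 0.0029 and 0.028. Members above 0 numbered 67 before removal of the GC content and length trend and 56 after it, and signs changed both ways. Mrps18a turned to -0.26 after trend removal (-0.16 with the longest transcript) and Mrps25 to 0.019 (0.0016). Among others that changed sign, Mrpl23 went from 0.41 to -0.0027, Mrpl28 from 0.34 to -0.011 and Mrpl3 from -0.06 to 0.09. No per-library expression was used, so no library could be left out there.

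Member JuncBASE events with an adjusted p under 0.05 by limma numbered 0 to 9 when 1 library was left out, 9 without smoke library 3, where 10.9% of all events were called. With only the 5933 events that have 6 values, 52 of them in members, 1 was called, in Mrpl23 (adjusted p = 0.04), and 23 of all. At an unadjusted p under 0.05 the count of 14 of 101 became 8 without the log transformation (11.8% of all events), 2 of the 42 with mean inclusion of 5% to 95% (11.4% of all), and 8 to 21 with 1 library left out (21 without smoke library 3, where 24.9% of all events passed). The mean retention difference ranged from -5.37 without smoke library 3 to -3.80 without smoke library 1. Replicate numbers are shared by label but same-numbered libraries did not deviate together (correlations -0.0888 to 0.0177 over 5933 events); with a replicate block 0 member events were called, 10 had an unadjusted p under 0.05 (7.71% of all), and the retention difference was -4.54. Of the 3 rMATS introns, 1 passed at a false discovery rate under 0.01 and 0 differed by at least 10 percentage points as well. Causes of these changes were not tested. Read depth is unknown, so no counting error could be given for the splicing levels.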
